A study of Rattus norvegicus with 8 samples.

Results

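The GABA-A receptor subunit genes described here are Gabra2, Gabra3, Gabra4, Gabra5, Gabrb1, Gabrb2 and Gabrd, 7 of the 34298 genes in the deposited count table, found by name among its protein-coding rows. The rule that finds them uses no measured value. Messenger RNA was sequenced from the orbitofrontal cortex of adult male Sprague-Dawley rats that were 8 weeks old when they arrived. The strain is outbred. In 4 animals the siRNA was aimed at the backsplice junction of circNrxn3, the circular RNA of the neurexin 3 gene (circNrxn3 replicates 1 to 4), and in 4 it was a scrambled control (scrambled replicates 1, 3, 4 and 5). Every animal received 5 ng of siRNA in 1 µl of the JetPEI transfection reagent, and tissue was taken 7 days later. The whole region was sequenced, so treated and untreated cells of all types are mixed, and the labels do not say what share of cells took up the siRNA. The design asks how lowering the circle alters cortical mRNA levels. Poly-T selected libraries hold mainly linear mRNA, and gene counts do not separate reads of the circle, so they do not check that it was lowered.

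GABA-A receptors are chloride channels opened by the neurotransmitter GABA, and each is a ring of subunits, most often of alpha and beta subunits together with a gamma or a delta subunit. The alpha subunit sets much of where a receptor sits and how it answers drugs. Receptors with the alpha 2 or alpha 3 subunit are typical of synapses and are sensitive to benzodiazepines. Those with alpha 5, or with alpha 4 and delta, lie largely outside synapses and carry tonic inhibition. Beta subunits help form the GABA binding site and are needed for the receptor to reach the membrane.

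Total counts per library were 28219271 to 35221782 in the circNrxn3 siRNA group and 27589883 to 35191810 in the scrambled group. Markers of excitatory cortical neurons, the main cell class expected in this tissue, had a high summed level (13 of 13 found were tested). The sum was 8461 to 9999.7 CPM in circNrxn3 siRNA libraries and 9612 to 10358 CPM in scrambled libraries. Nrgn, at means of 6239 and 7032 CPM in these groups, and Slc17a7, at 2066 and 2254 CPM, weigh most in it. Rorb, the lowest of these markers, averaged 3.98 and 3.87 CPM. CPM values were calculated with TMM-adjusted library totals. The 4 tested markers of cerebellar granule cells summed to at most 20.2 CPM in any library, and Gabra6, the alpha subunit typical of those cells, averaged 0.506 CPM and 0.247 CPM in the circNrxn3 siRNA and scrambled libraries. The log2 difference between genes with models over 3486 bp and genes under 1372 bp, a measure of how well long transcripts are represented, was −0.07 in circNrxn3 replicate 3 and −0.16 and −0.19 in scrambled replicates 3 and 4. It was between −0.03 and 0.20 in the other 5 libraries. These 3 libraries recur below, and results that lean on them are given with and without them.

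No subunit gene passed the test between the siRNA groups. Over 16573 genes, the quasi-likelihood test of edgeR (Benjamini-Hochberg adjustment) called 0 of the 7 subunit genes and 0 genes in all (percent called 0), and their adjusted p ranged from 0.833 to 0.966. DESeq2 called 12 genes in all (0.0725%) and limma-voom 0, and neither called a subunit gene. At an unadjusted p under 0.05 the edgeR test held 926 genes, 5.59% of those tested (2.38% higher and 3.2% lower in circNrxn3 siRNA), and 1 of them, Gabrb1, was a subunit gene. Of the subunit genes 4 had a log2 fold change (circNrxn3 siRNA over scrambled) above 0 and 3 below, against 51.3% of all genes above 0. Their median was 0.10, against 0.0066 over all genes tested. The labels call the animals of a group biological replicates, so these p-values measure the spread between animals. In bulk tissue, fewer cells of a type and less RNA per cell cannot be told apart.

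**Figure D1:**
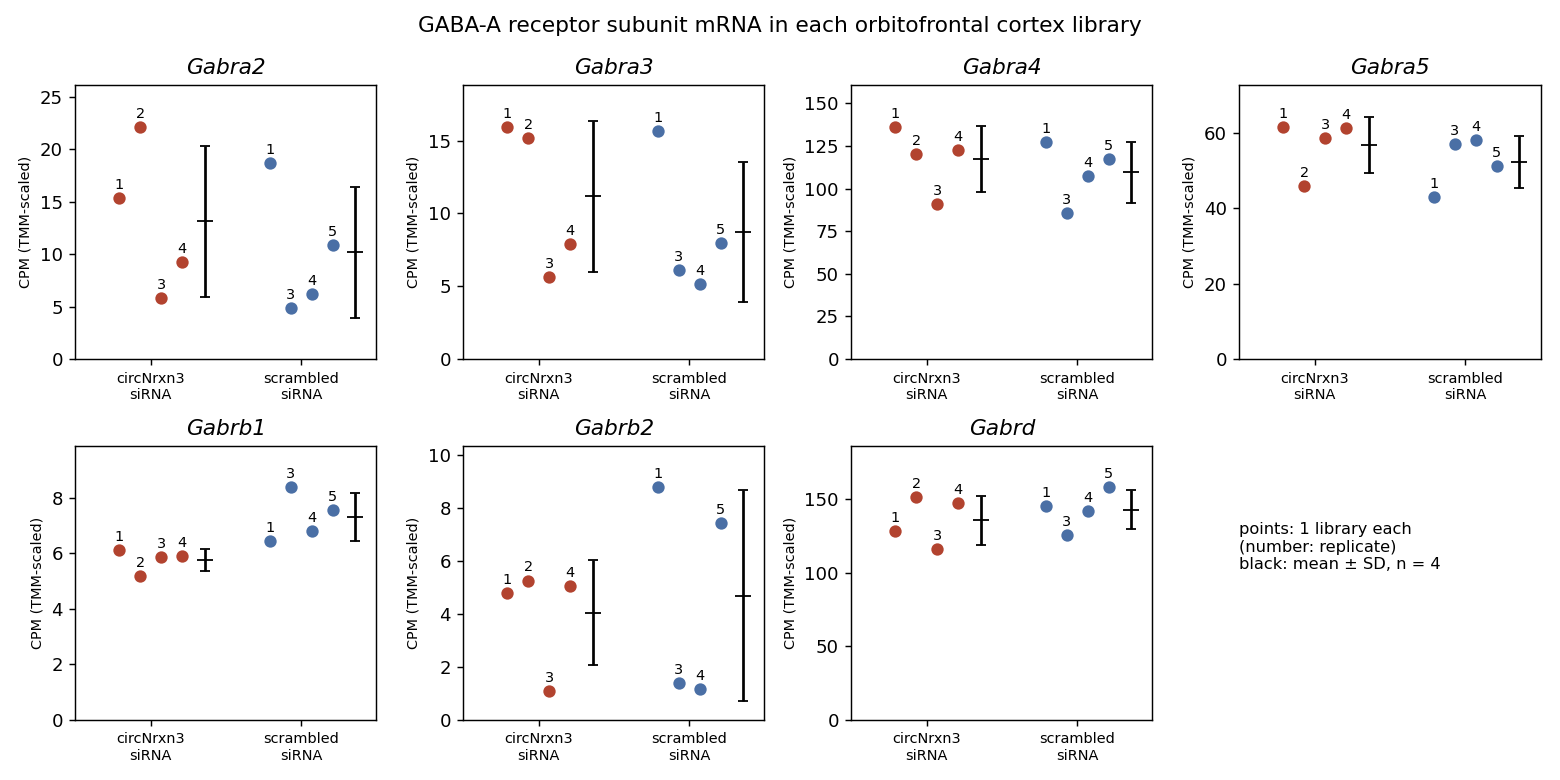
CPM of each subunit gene (y axis, from 0) in each library, with circNrxn3 siRNA at left and scrambled siRNA at right, numbers giving the replicate and black bars the mean ± SD (n = 4 each). The groups overlap for every gene except Gabrb1, where circNrxn3 siRNA libraries reach 6.11 CPM at most and scrambled libraries start at 6.44 CPM.

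**Figure D2:**
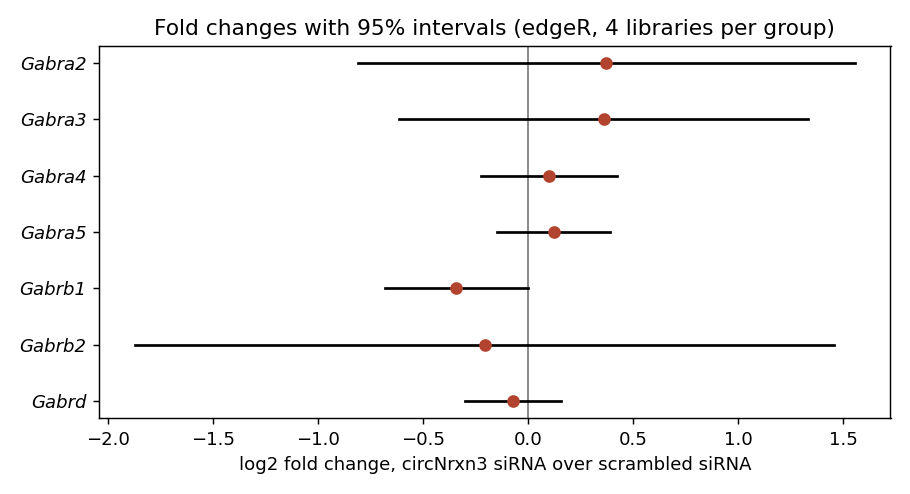
Log2 fold change of circNrxn3 siRNA over scrambled siRNA (x axis) of each subunit gene from the edgeR fit, with 95% intervals that are not adjusted for multiple testing. The interval of Gabrb2 runs from −1.87 to 1.46, and that of Gabrd from −0.30 to 0.16.

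The beta subunit gene Gabrb1 was the single member whose groups did not overlap. Gabrb1 (ENSRNOG00000002327, chromosome 14, 38643385 to 39112600, minus strand, rn6) was at 6.11, 5.19, 5.87 and 5.89 CPM in circNrxn3 replicates 1 to 4, against 6.44, 8.38, 6.83 and 7.58 CPM in scrambled replicates 1, 3, 4 and 5. All 4 circNrxn3 siRNA values lay below all 4 scrambled values, a separation seen in either direction in 3.48% of genes tested, downward in 1.65% and upward in 1.82%. The means were 5.76 ± 0.398 CPM and 7.31 ± 0.858 CPM (SD, n = 4 each, circNrxn3 siRNA first). This gave a log2 fold change of −0.34 (standard error 0.15, 95% interval −0.68 to −0.0014), with an unadjusted p of 0.0492 and an edgeR adjusted p of 0.833, which is not a call. The gap between the groups was narrow for the depth. In the libraries nearest to each other, circNrxn3 replicate 1 held 226 reads (95% exact Poisson interval 197 to 257) and scrambled replicate 1 held 180 reads (155 to 208), intervals that cover counting error only. These reads are not scaled for depth, and the library totals were 35221782 and 27589883 counts, so only the CPM compare the levels. The fold change stayed below 0 in all 24 alternative analyses, at −0.40 to −0.27. Since the groups did not overlap, leaving out libraries could hardly turn that sign, and every alternative used libraries of the same animals. The within-group SD of Gabrb1 on the log2 scale was 0.14, and 6.83% of the 3736 genes within 2-fold of its level had a smaller one.

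A marker list differed between the groups in the same direction as Gabrb1, but did not follow it from library to library within the groups. The 10 astrocyte markers, all tested and none at 0 in any library, summed to 3554 to 3877 CPM in circNrxn3 siRNA libraries and 3994 to 4318 CPM in scrambled libraries, ranges that did not overlap. Among the 15 gene lists no other had sums without overlap. By library, the astrocyte sums were 3617, 3738, 3877 and 3554 CPM in circNrxn3 replicates 1 to 4. They were 4281, 3994, 4033 and 4318 CPM in scrambled replicates 1, 3, 4 and 5. Within the scrambled group the sum was thus lowest in replicate 3, where Gabrb1 was highest. Of these markers 8 had a log2 fold change below 0, none passed the test and none by itself separated the groups. Gja1 and Fgfr3 were above 0, at 0.01 and 0.10. The most abundant was S100b, a calcium-binding protein, at 1335 CPM in the circNrxn3 siRNA and 1501 CPM in the scrambled group. Aldoc followed at 1080 and 1199 CPM, and these genes weigh most in the sum. Markers of red blood cells were also lower in circNrxn3 siRNA, with 4 of 4 below 0 (median log2 fold change −1.13) and none called. All 4 had an unadjusted edgeR p under 0.05, against 5.59% of all genes tested. Hbb-b1 and Alas2 had groups without overlap, downward, against 1.65% of all genes tested. The 4 markers summed to 164 to 315 CPM in circNrxn3 siRNA and 282 to 999 CPM in scrambled libraries. The part of RNA from astrocytes and blood in the Gabrb1 values was not tested. Of the 10 oligodendrocyte markers, 10 were above 0 and none was called, with sums of 2638 to 4290 CPM in circNrxn3 siRNA and 2078 to 4873 CPM in scrambled libraries. Of the tested markers, 4 of 9 were above 0 for microglia, 3 of 6 for endothelial cells and 3 of 9 for medium spiny neurons, and the sums of each overlapped between the groups, as did those of red blood cells and oligodendrocytes.

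The other beta subunit gene, Gabrb2, differed more between animals of 1 group than between the groups. Gabrb2 (ENSRNOG00000003680, chromosome 10, 27973681 to 28187565, plus strand, rn6) was at 4.78, 5.26, 1.08 and 5.04 CPM in circNrxn3 replicates 1 to 4, and at 8.77, 1.40, 1.16 and 7.41 CPM in replicates 1, 3, 4 and 5 of the scrambled group. It was thus low in circNrxn3 replicate 3 and in scrambled replicates 3 and 4, with an 8.12-fold range over the 8 libraries. Counting error does not span that gap. The low libraries held 30 reads (95% Poisson interval 20.2 to 42.8) in circNrxn3 replicate 3 and 47 (34.5 to 62.5) and 39 (27.7 to 53.3) in scrambled replicates 3 and 4, whereas the others held 160 to 177 in the circNrxn3 siRNA group and 218 to 245 in the scrambled group. The within-group SD of 1.31 on the log2 scale exceeded that of 97.8% of the 3513 genes within 2-fold of its level. Between the groups the log2 fold change was −0.21 (standard error 0.73, 95% interval −1.87 to 1.46, edgeR adjusted p = 0.966). Its sign rested on single libraries, since it was 0.10 without circNrxn3 replicate 3, 0.29 without scrambled replicate 1 and 0.11 without scrambled replicate 5. It was 0.23 with limma-voom. Without the 3 libraries in which it was low it was −0.68 (edgeR adjusted p = 0.994).

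Both beta genes carry the same 10-base element in the RefSeq promoter window, and their windows are shown for that reason beside that of Gabrd, which differs in composition. The windows hold 250 bases before and 50 after the start site that the RefSeq table uses in the GRCr8 build (the counts are on rn6), and 6 of the 7 genes had one, all but Gabra2. The Gabrb1 window is chr14:36902844-36903143 (minus strand), that of Gabrb2 chr10:27439543-27439842 (plus strand) and that of Gabrd chr5:171252660-171252959 (minus strand). Capitals mark GCGCATGCGC in the beta genes, the palindromic binding element of nuclear respiratory factor 1, and GGGCGG or its complement CCGCCC, the GC box bound by Sp1, in Gabrd.
Gabrb1: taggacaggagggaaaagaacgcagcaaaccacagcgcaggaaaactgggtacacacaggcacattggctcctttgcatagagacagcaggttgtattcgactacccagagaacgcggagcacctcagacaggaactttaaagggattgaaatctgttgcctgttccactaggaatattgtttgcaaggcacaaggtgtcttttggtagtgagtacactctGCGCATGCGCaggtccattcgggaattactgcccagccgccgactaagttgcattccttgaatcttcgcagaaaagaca
Gabrb2: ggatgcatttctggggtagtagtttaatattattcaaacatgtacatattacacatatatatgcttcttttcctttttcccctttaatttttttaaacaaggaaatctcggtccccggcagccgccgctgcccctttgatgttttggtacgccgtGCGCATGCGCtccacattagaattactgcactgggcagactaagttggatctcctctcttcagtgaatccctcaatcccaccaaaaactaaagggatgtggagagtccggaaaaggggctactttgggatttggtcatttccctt
Gabrd: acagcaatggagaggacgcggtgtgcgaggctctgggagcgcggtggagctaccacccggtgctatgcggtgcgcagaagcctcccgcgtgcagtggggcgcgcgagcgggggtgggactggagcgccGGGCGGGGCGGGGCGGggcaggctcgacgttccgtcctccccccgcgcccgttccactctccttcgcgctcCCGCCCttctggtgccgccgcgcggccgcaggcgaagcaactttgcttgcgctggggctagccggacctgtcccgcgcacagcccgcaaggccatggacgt

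The element GCGCATGCGC (GCGCA followed by its reverse complement), read on both strands, was found once in Gabrb1, beginning at −29 from the start site, and once in Gabrb2, at −95. It occurred in 2 of the 6 windows and in 0.852% of the 33469 promoter windows of the same length in the table. The windows of Gabrb1 and Gabrb2 also share the letters gaattactgc and gactaagttg after the element. Their 2 matches may therefore not be independent. GGGCGG was found in 3 of the 6, with 4 matches in Gabrd (3 of them in a run that overlap by 1 base) and 1 each in Gabra4 and Gabra5, against 33.1% of all windows. TATAAA was found in Gabra3 alone (14.2% of all windows), and TGACGTCA, the cyclic AMP response element, in 0 of 6 (1.83% of all windows). The windows of Gabrb1 and Gabrb2 were 49.3% and 44.0% G or C, and those of Gabra4, Gabra5 and Gabrd 70.7%, 76.3% and 73.7%. A match describes letters in a window, and no binding was measured.

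The beta genes made up different shares of their own sum from library to library. Compared per length of the gene model, with the FPKM values that the authors deposited, Gabrb2 was 41.8%, 48.2%, 14.5% and 44.0% of the summed FPKM of Gabrb1 and Gabrb2 in circNrxn3 replicates 1 to 4. It was 55.5%, 13.3%, 13.5% and 47.3% in scrambled replicates 1, 3, 4 and 5. The share averaged 37.1 ± 15.3% and 32.4 ± 22.2% (SD, n = 4 each, circNrxn3 siRNA first), and the groups overlapped.

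The synaptic alpha subunit genes Gabra2 and Gabra3 had the highest fold changes of the 7 and wide intervals. Gabra2 (ENSRNOG00000002349, chromosome 14, 39661968 to 39798302, plus strand, rn6) encodes the alpha 2 subunit, which is enriched at synapses on the axon initial segment of pyramidal cells. It was at 15.4, 22.2, 5.79 and 9.26 CPM in circNrxn3 replicates 1 to 4, and at 18.7, 4.89, 6.23 and 10.9 CPM in replicates 1, 3, 4 and 5 of the scrambled group. The highest library was circNrxn3 replicate 2, the lowest was scrambled replicate 3, and the groups overlapped over most of their range. The log2 fold change of Gabra2 was 0.37 (standard error 0.52, 95% interval −0.81 to 1.55, edgeR adjusted p = 0.911). A single library moved it widely, to 0.0010 without circNrxn3 replicate 2 and 0.85 without scrambled replicate 1. Leaving out circNrxn3 replicate 3 gave 0.61, and leaving out scrambled replicate 3 or 4 gave 0.14 or 0.19.

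Gabra3 (ENSRNOG00000056558, chromosome X, 152414615 to 152642531, minus strand, rn6) encodes the alpha 3 subunit, a further partner of synaptic receptors. It was at 15.9, 15.2, 5.65 and 7.88 CPM in circNrxn3 replicates 1 to 4, and at 15.7, 6.11, 5.13 and 7.95 CPM in replicates 1, 3, 4 and 5 of the scrambled group. The libraries that were high or low in Gabra2 were largely high or low in Gabra3 too, with circNrxn3 replicates 1 and 2 and scrambled replicate 1 at the top of both. Its log2 fold change was 0.36 (standard error 0.43, 95% interval −0.61 to 1.33, edgeR adjusted p = 0.899), and it was 0.81 without scrambled replicate 1 and 0.14 without circNrxn3 replicate 1. Leaving out scrambled replicate 4 or circNrxn3 replicate 2 gave 0.17 or 0.18, leaving out scrambled replicate 3 gave 0.22, and leaving out circNrxn3 replicate 3 gave 0.57. The model of Gabra3 overlaps 2 miRNA models and that of Gabra5 1, each with 0 reads, and no other member lies within 1000 bp of another gene model. The within-group SD was 0.85 for Gabra2 and 0.72 for Gabra3 on the log2 scale, above 96.4% and 93.3% of genes within 2-fold of their levels.

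The alpha subunits of extrasynaptic receptors had smaller within-group SDs on the log2 scale, at 0.25 for Gabra4 and 0.20 for Gabra5. These still exceeded the SDs of 90.3% and 79.3% of genes within 2-fold of their levels. Gabra4 (ENSRNOG00000002336, chromosome 14, 39154529 to 39231695, plus strand, rn6), the usual partner of the delta subunit in the forebrain, was at 136, 120, 90.7 and 122 CPM in circNrxn3 replicates 1 to 4 and at 127, 85.5, 108 and 118 CPM in replicates 1, 3, 4 and 5 of the scrambled group. Its lowest values were again those of circNrxn3 replicate 3 and scrambled replicates 3 and 4, but the whole range was 1.59-fold. Gabra4 had a log2 fold change of 0.10 (standard error 0.15, 95% interval −0.22 to 0.42, edgeR adjusted p = 0.912), and −0.0061 without scrambled replicate 3. Gabra5 (ENSRNOG00000010803, chromosome 1, 112833975 to 112947173, minus strand, rn6), the alpha subunit of tonic receptors best known from the hippocampus, was at 61.6, 45.9, 58.7 and 61.3 CPM in circNrxn3 replicates 1 to 4. The scrambled group had 43.0, 57.0, 58.0 and 51.1 CPM in replicates 1, 3, 4 and 5. Here circNrxn3 replicate 2 and scrambled replicate 1, which were high in Gabra2 and Gabra3, were the lowest of their groups. For Gabra5 the log2 fold change was 0.12 (standard error 0.12, 95% interval −0.15 to 0.39, edgeR adjusted p = 0.873). It was 0.04 without scrambled replicate 1 and 0.21 without circNrxn3 replicate 2.

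Gabrd, the delta subunit that marks extrasynaptic receptors and their sensitivity to neurosteroids, had the narrowest interval. Gabrd (ENSRNOG00000016385, chromosome 5, 172797450 to 172809353, minus strand, rn6) was at 128, 151, 116 and 147 CPM in circNrxn3 replicates 1 to 4 and at 145, 126, 142 and 158 CPM in replicates 1, 3, 4 and 5 of the scrambled group. The means were 136 ± 16.6 CPM and 143 ± 13.3 CPM (SD, n = 4 each, circNrxn3 siRNA first), and the groups overlapped. The log2 fold change of Gabrd was −0.07 (standard error 0.10, 95% interval −0.30 to 0.16, edgeR adjusted p = 0.911). It was −0.01 without circNrxn3 replicate 3, −0.03 without scrambled replicate 5, −0.05 without circNrxn3 replicate 1, −0.11 without circNrxn3 replicate 4 and −0.13 without scrambled replicate 3 or circNrxn3 replicate 2. The 95% interval corresponds to a level of 0.813 to 1.11 times that of the scrambled group, so a change larger than that lies outside the interval.

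**Figure D3:**
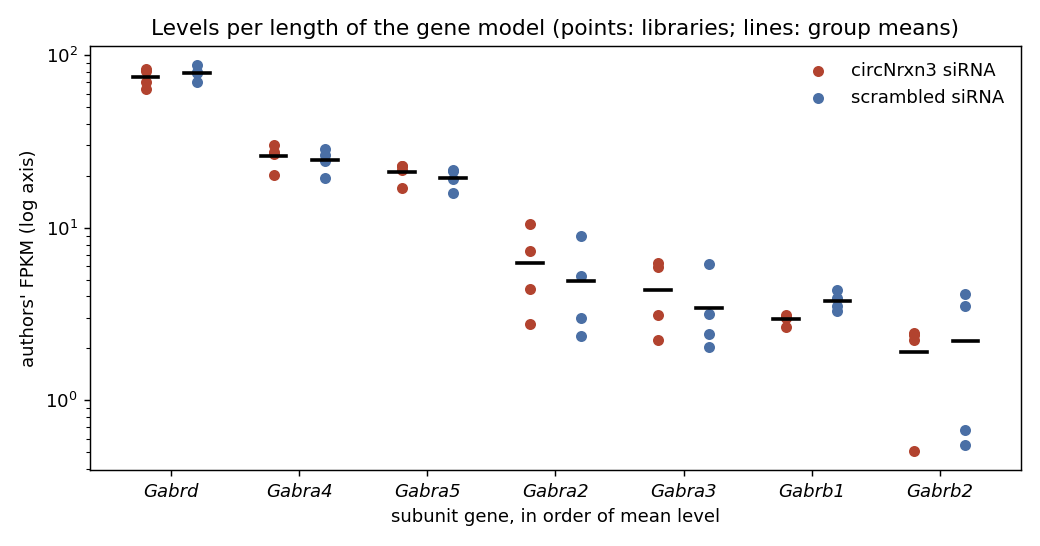
FPKM of each subunit gene (log y axis) in each library, ordered by mean level, with circNrxn3 siRNA left of scrambled siRNA and lines at the group means. Gabrd lies above all other members in all 8 libraries, and Gabrb2 spans from 0.509 to 4.13 FPKM.

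Per length of the gene model, Gabrd was the most abundant of the 7 mRNAs and Gabrb2 the least. Gabrd was at 74.7 ± 9.18 FPKM in circNrxn3 siRNA and 79.1 ± 7.15 FPKM in scrambled libraries (SD, n = 4 each). Gabra4 followed at 26.2 ± 4.23 and 24.7 ± 3.92 FPKM and Gabra5 at 21.1 ± 2.76 and 19.5 ± 2.67 FPKM, in the same order of groups. Gabra2 was at 6.27 ± 3.42 and 4.89 ± 2.97 FPKM, and Gabra3 at 4.38 ± 2.02 and 3.44 ± 1.86 FPKM. Gabrb1 was at 2.95 ± 0.205 and 3.78 ± 0.461 FPKM, and Gabrb2 at 1.90 ± 0.932 and 2.22 ± 1.87 FPKM. The step from Gabrd to Gabra4 held in all 8 libraries, at 2.32-fold to 3.62-fold, and so did the step from Gabra5 to Gabra2. The other neighbours overlapped. Gabra4 exceeded Gabra5 in 6 of 8 libraries, Gabra2 exceeded Gabra3 in 7, Gabra3 exceeded Gabrb1 in 4 and Gabrb1 exceeded Gabrb2 in 7. The order was the same with CPM per kilobase. The gene models span 1793 bp for Gabrd, 1926 bp for Gabrb1, 2070 bp for Gabra2, 2098 bp for Gabrb2, 2514 bp for Gabra3, 2668 bp for Gabra5 and 4419 bp for Gabra4. Whether they cover all exons was not checked, so levels compared between genes depend on these models.

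**Figure D4:**
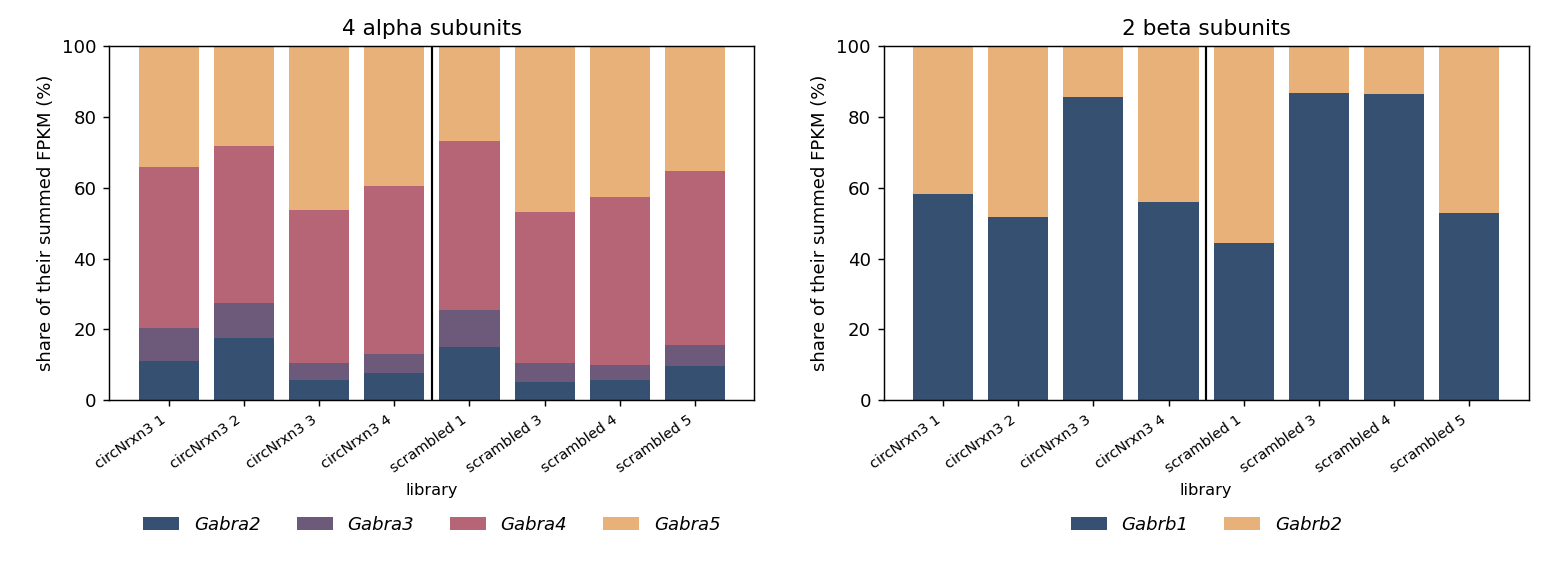
Share of each gene (y axis, percent) in the summed FPKM of the 4 alpha members (left) and of the 2 beta members (right) in each library, with circNrxn3 siRNA libraries left of the line and scrambled libraries right of it. Gabra4 keeps 42.5% to 49.1% of the alpha sum throughout, while Gabrb2 ranges from 13.3% to 55.5% of the beta sum.

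Among the 4 alpha members Gabra4 held a steady share of the summed FPKM, at 45.2 ± 1.85% in circNrxn3 siRNA and 46.8 ± 2.90% in scrambled libraries (SD, n = 4 each). Gabra2 tended to be high where Gabra5 was low, with Gabra5 above Gabra2 in all 8 libraries. Gabra2 made up 11.0%, 17.5%, 5.88% and 7.68% in circNrxn3 replicates 1 to 4 and 15.0%, 5.19%, 5.89% and 9.70% in scrambled replicates 1, 3, 4 and 5. Gabra5 made up 34.1%, 28.2%, 46.2% and 39.4% in circNrxn3 replicates 1 to 4 and 26.8%, 46.9%, 42.5% and 35.4% in scrambled replicates 1, 3, 4 and 5. Shares of a fixed sum cannot move independently, and other alpha subunits are left out of this sum.

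**Figure D5:**
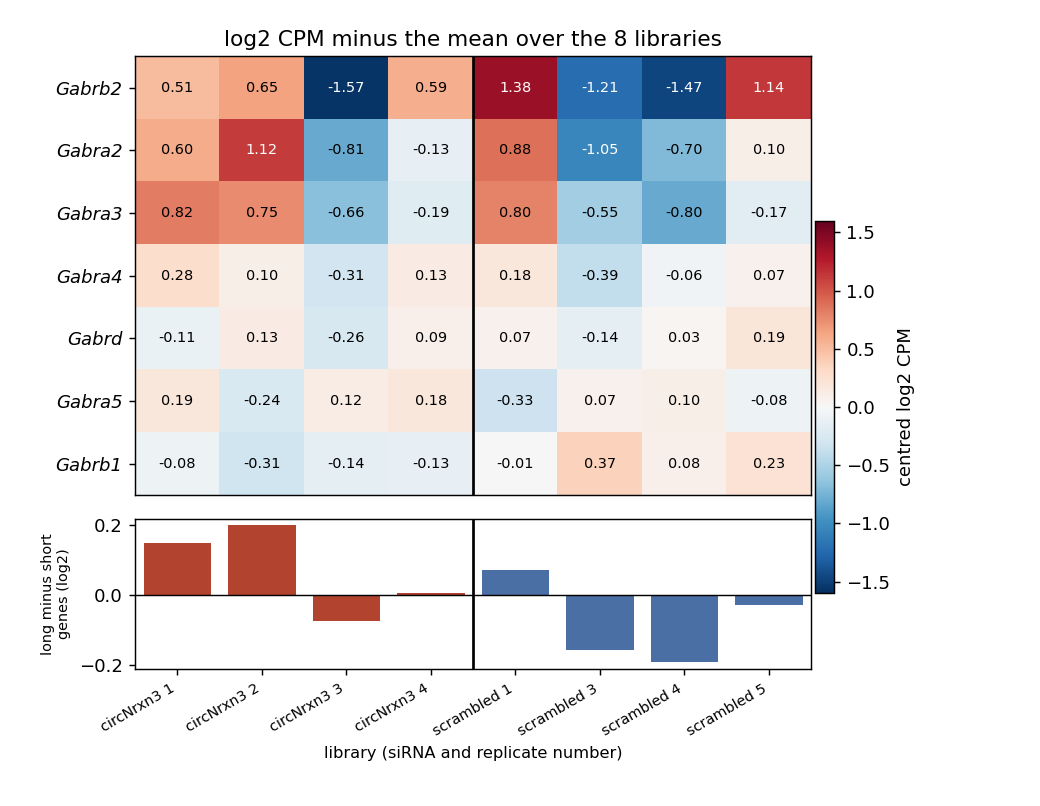
Log2 CPM of each subunit gene minus its mean over the 8 libraries (top, colour and numbers), and the log2 difference between long and short genes in the same libraries (bottom), with circNrxn3 siRNA libraries left of the line and scrambled libraries right of it. Gabrb2, Gabra2, Gabra3 and Gabra4 are lowest in circNrxn3 replicate 3 and scrambled replicates 3 and 4, which also have the lowest bars.

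Several members varied across animals in a shared pattern. In Gabrb2, Gabra2, Gabra3 and Gabra4, 4 of the 7 members, circNrxn3 replicate 3 and scrambled replicates 3 and 4 were the 3 lowest libraries, a description chosen after the values were seen. The same held for 10.3% of all genes tested, and the reverse, with these 3 libraries highest, for 6.94%. In these libraries, in that order, Gabrb2 was at −1.57, −1.21 and −1.47 relative to its mean on the log2 scale, and Gabra4 at −0.31, −0.39 and −0.06. Gabrb1 and Gabra5 did not share the drop. Gabrb1 was at −0.14 relative to its mean in circNrxn3 replicate 3 and at 0.37 and 0.08 in scrambled replicates 3 and 4, and Gabra5 was at 0.12, 0.07 and 0.10 in the 3 libraries. Gabrd was at −0.26 in circNrxn3 replicate 3, its lowest value, and at −0.14 and 0.03 in scrambled replicates 3 and 4.

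These 3 libraries held the fewest genes with a read, 19487 in circNrxn3 replicate 3 and 18274 and 19572 in scrambled replicates 3 and 4. The other libraries held 19845 to 20494. Total counts in these 3 were, in that order, 28219271, 35191810 and 34563807. They also had the lowest representation of long genes, and genes lowest in them had a median model of 2929.5 bp, against 2215 bp over all genes tested. The model of Gabrb2, at 2098 bp, is near that median, and that of Gabra4, at 4419 bp, is well above it. With a trend on gene model length removed from each library, Gabrb2 was at −1.58, −1.19 and −1.47 relative to its mean in circNrxn3 replicate 3 and scrambled replicates 3 and 4. A model near the median length is moved little by this step, so for Gabrb2 it is no test of transcript representation. Gabra4 was then at −0.28, −0.30 and 0.02 in the same 3 libraries, and at 0.03 in circNrxn3 replicate 2. Its low value in scrambled replicate 4 thus did not remain below its mean. With the trend removed, the log2 fold changes of Gabra2, Gabrb1 and Gabrb2 were 0.37, −0.34 and −0.21. The models of Gabra2 and Gabrb1, at 2070 bp and 1926 bp, are also near the median length, so these values are no test of transcript representation either. The log2 fold change of Gabra4 was 0.04, against 0.10 without that step. Without the 3 libraries the log2 fold changes were 0.08 for Gabra2, 0.15 for Gabra3, 0.05 for Gabra4, 0.26 for Gabra5, −0.29 for Gabrb1 and −0.09 for Gabrd, and none passed (smallest edgeR adjusted p = 0.994). Interneuron markers, 12 of 13 tested and none at 0 in a library, summed to 2470 CPM in circNrxn3 replicate 3 and to 2864 and 2923 CPM in scrambled replicates 3 and 4. They summed to 2191 to 2419 CPM in the other circNrxn3 siRNA libraries and 2365 to 2387 CPM in the other scrambled libraries. The neuropeptide genes Cck and Sst weigh most in these sums. Cck averaged 1060 CPM in circNrxn3 siRNA and 1310 CPM in scrambled libraries, and Sst 485 and 525 CPM. Gad1 averaged 225 and 208 CPM and Gad2 146 and 140 CPM, so the sums say little about interneurons as a whole. The part of transcript representation, of the number of genes detected and of interneuron RNA in the values of the members was not tested.

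Gabrb1, Gabra4 and Gabra2 lie in 1 cluster on chromosome 14 that spans 1154918 bp (rn6). Gabrb1 and Gabra4 are transcribed away from each other with 41928 bp between their models, and Gabra2 follows Gabra4 after 430272 bp. Gabra4 and Gabra2 were both lowest in circNrxn3 replicate 3 and scrambled replicates 3 and 4, and Gabrb1 was not. In scrambled replicate 3, for example, Gabra4 and Gabra2 were at −0.39 and −1.05 relative to their means on the log2 scale, whereas Gabrb1 was at 0.37.

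The genes whose log2 CPM over the 8 libraries was most like the mean of the 7 centred members were Camta1, Dpp8, Fam171b, Klhl34 and Trim33, the top 5 of 13006 candidates, with Pearson coefficients of 0.991 to 0.995. These values are high because the genes were picked for them, and libraries that share a drop dominate. Camta1, a calmodulin-binding transcription activator, was at 17.8, 18.6, 3.96 and 10.7 CPM in circNrxn3 replicates 1 to 4 and at 19.9, 5.28, 5.39 and 13.4 CPM in replicates 1, 3, 4 and 5 of the scrambled group, low in the same libraries as Gabrb2.

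Other genes of GABA-A receptor assembly, anchoring and drive showed no call either, with 0 of 63 tested genes in 6 lists passing in either direction. Of 9 tested GABA-A subunit genes outside the 7, 6 were above 0 and 3 below (median log2 fold change 0.03). Their most extreme value was that of Gabra6, 1.02 with a standard error of 0.59 at under 1 CPM. Of 14 organisers of the inhibitory synapse, 5 were above 0 and 9 below (median −0.04). In that list Gphn, which encodes the receptor anchor gephyrin, was at 54.4 to 59.5 CPM in circNrxn3 siRNA and 44.5 to 53.1 CPM in scrambled libraries. Its log2 fold change was 0.18 (standard error 0.08, edgeR adjusted p = 0.833). Of the 63 genes only Gphn and Zdhhc3 had groups without overlap, against 3.48% of all genes tested in either direction. Clptm1, which holds receptors back in the endoplasmic reticulum, had −0.14 (standard error 0.08).

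Of 18 genes of receptor trafficking, 11 were above 0 and 7 below (median 0.06). Zdhhc3, a palmitoyl transferase that acts on receptor subunits, had a log2 fold change of 0.12 with values of 54.2 to 60.5 CPM in circNrxn3 siRNA and 50.9 to 53.5 CPM in scrambled libraries. Rdx, which encodes radixin, an anchor of alpha 5 receptors, had 0.13. Of 7 tested genes of neuronal chloride transport, 5 were above 0 (median 0.07), and those with the smallest unadjusted p were Stk39, a kinase that regulates chloride cotransporters, at 0.17 (standard error 0.07, edgeR adjusted p = 0.833), and Slc4a10, a bicarbonate transporter, at 0.16. Slc12a5, the neuronal chloride exporter, named after its value was seen, had the highest log2 fold change of that list at 0.27 (standard error 0.28) and did not pass. Of 5 tested genes of neurosteroid synthesis, 2 were above 0 (median −0.0035), and Akr1c14 and Tspo both had −0.44 with standard errors of 0.38 and 0.41. Of the 10 genes for GABA synthesis, transport and GABA-B receptors, 7 were above 0 (median 0.08). Slc32a1, the vesicular GABA transporter, had −0.18 and Abat, which breaks GABA down, 0.33, and neither passed.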

How the data were processed

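The authors deposited raw read counts per gene, with no normalization, for poly-T selected, strand-marked libraries. They also deposited FPKM values, counts scaled to gene model length and a library total, for the same genes. Per the submitters' processing notes, featureCounts 1.5.0-p3, StringTie 1.3.3b, HISAT2 2.0.5 and fastp were used with the build rn6 (roles and settings not given). Whether counting used strand is likewise not given.

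Columns were matched to samples by title. Of 34298 genes, 11107 had 0 counts throughout. Libraries of a group all differed beyond sampling noise (chi-square over degrees of freedom 23.2 to 47.4). Counts were tested with edgeR 4.0.16 in R 4.3.3 (filterByExpr with a minimum count of 10, TMM, robust quasi-likelihood F test, no covariates, 2-sided, threshold 0.05), checked on simulated data. CPM use TMM factors, centred log2 CPM a prior count of 2, and the standard error is the fold change over the square root of F. Alternatives used DESeq2 1.42.0, limma 3.58.1 and other scalings, filters and sample sets. In the FPKM fits, 1 or 0.1 was added before log2. Total counts were 27589883 to 35221782 per library, and libraries differed by more than counting error, so the spread between animals sets the precision.

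Although the rule uses no measured value, the members and the gene lists were proposed with earlier results of these data known. Named genes are the members, the 2 genes with the smallest p of each pathway list and the 5 most like the members in pattern. Further genes were named for their level or as a marker, and 1 gene under this rule is not reported here. Of the genes in the 6 pathway lists, 70 of 74 were found among protein-coding genes. Promoter windows are from RefSeq (GRCr8).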

Additional observations from a re-analysis of the deposited data

Results flagged for a closer look

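Gabrb2 in circNrxn3 replicate 3, at 1.08 CPM, lay far below the other circNrxn3 siRNA libraries, which were at 4.78 to 5.26 CPM. The gap was 0.887 of the group's whole range, above the 95% critical value of Dixon's test for 4 values. Of 14 sets of 4 values tested (each of the 7 genes in each group) this was the only one past that value, and chance flags about 1 in 20. The scrambled group held similar values of Gabrb2 (1.40 and 1.16 CPM in replicates 3 and 4).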

How the results depend on the processing

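No subunit gene passed in any of the 24 alternatives (smallest adjusted p 0.491), but DESeq2's independent filter gave Gabra2, Gabra3, Gabrb1 and Gabrb2 no adjusted p, so 4 of the 7 were not tested there. Over all genes, 12 passed with DESeq2 and 18 with that filter. Leaving out 1 replicate gave 0 to 1, the 1 being without circNrxn3 replicate 2 or 3. Without the 3 libraries lowest in long transcripts, left out after seeing the data like the independent filter, 3 passed. Gabra2, Gabra3, Gabra5, Gabrb1 and Gabrd kept their direction in every alternative run. For Gabrb1, whose groups did not overlap, leaving out libraries could hardly turn it. Gabra4 ran from −0.01 to 0.20 when 1 library was left out, turning at scrambled replicate 3 (−0.0061). Gabrb2 turned to 0.23 with limma-voom, 0.0613 with log2(FPKM + 0.1) and 0.24 with the replicate block, and ran from −0.53 to 0.29 when 1 library was left out. The cause was not tested. The block used the 6 libraries of numbers 1, 3 and 4, whose deviations correlated at 0.369, 0.299 and 0.0866 for numbers 1, 3 and 4. Every circNrxn3 siRNA library of these correlated best with the scrambled library of its number, as did scrambled replicates 1 and 3 in return, whereas scrambled replicate 4 correlated best with circNrxn3 replicate 3. CircNrxn3 replicate 3 and scrambled replicates 3 and 4 also share the low pattern described above, so these correlations cannot tell pairing from shared library patterns. No label states pairing, and number 4 falls short of 0.1. With and without the replicate block 0 genes were called, and Gabrb2 without it was at −0.04. At 30 to 47 reads, the order of the 3 low Gabrb2 libraries was not detectable at this depth.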
